A study of Homo sapiens with 12 samples.

Results

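Metallothioneins are small, cysteine-rich proteins that bind zinc and copper and also take up cadmium. Their genes are switched on by metals through MTF1, a transcription factor that binds short metal response elements in their promoters, and also by glucocorticoids and oxidative stress. The members described here are MT2A, the widely expressed metallothionein 2 gene, and the metallothionein 1 genes MT1E, MT1F, MT1G, MT1H, MT1M and MT1X. They were found through the RefSeq accession that the array design gives for each probe, which led to 8 probes for these 7 genes among 34127 probes and 27522 gene names on the array. MT1X had 2 probes and each of the other members had 1. Of the 7 genes, 6 passed the filter on low signal (at least 1 siRNA with all of its 3 arrays well above background), and MT1H did not. The coding sequences of the family are close to one another, and how much of each probe's signal came from another member was not tested.

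The study compared cytoplasmic mRNA expression in U2OS cells, a human osteosarcoma cell line, after transfection of 20 nM control siRNA or siRNA against DBP5, GLE1 or IPPK. DBP5 is an RNA helicase at the cytoplasmic face of the nuclear pore, GLE1 activates it, and IPPK makes inositol hexakisphosphate, a cofactor of GLE1. Cytoplasmic RNA was taken after 48 h, and each siRNA had 3 arrays from independent experiments, 1 on each of 3 slides. The methods name more than 1 siRNA for control, GLE1 and IPPK, and the labels do not say which was on the arrays. Values are log2 intensities after background subtraction and cyclic loess, so a difference of 1 is a 2-fold difference, and levels are not compared between probes. Tests are limma over all 12 arrays, two-sided, with p-values adjusted by Benjamini-Hochberg over 20821 genes and called at 0.05. In RNA from a whole culture, a change in the share of cells and a change in RNA per cell cannot be told apart, nor can more transcription and more export.

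Promoter sequences from RefSeq (GRCh38.p14) are given for MT2A, MT1X and MT1H. Only these 3 of the 7 members had a sequence in the set used, so the promoters of MT1E, MT1F, MT1G and MT1M were not searched. The sequences are shown for the metal response elements through which this family is known to be induced. Each run covers the 250 bases before the start site, 5′ to 3′, and the capitals mark the metal response element core, searched as TGCACNC and TGCGCNC on both strands.
MT2A, chr16:56608334-56608583 (+): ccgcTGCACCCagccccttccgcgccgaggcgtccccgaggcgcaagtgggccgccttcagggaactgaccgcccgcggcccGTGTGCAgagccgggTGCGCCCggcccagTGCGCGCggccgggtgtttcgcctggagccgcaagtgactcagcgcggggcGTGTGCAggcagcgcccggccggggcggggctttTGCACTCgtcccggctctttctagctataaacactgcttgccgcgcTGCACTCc
MT1X, chr16:56682220-56682469 (+): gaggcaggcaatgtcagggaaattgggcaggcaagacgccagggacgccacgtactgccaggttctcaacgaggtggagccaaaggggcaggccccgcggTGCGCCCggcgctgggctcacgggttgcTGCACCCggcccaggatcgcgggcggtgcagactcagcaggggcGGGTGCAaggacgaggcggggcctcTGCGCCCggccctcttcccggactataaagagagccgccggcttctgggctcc
MT1H, chr16:56669564-56669813 (+): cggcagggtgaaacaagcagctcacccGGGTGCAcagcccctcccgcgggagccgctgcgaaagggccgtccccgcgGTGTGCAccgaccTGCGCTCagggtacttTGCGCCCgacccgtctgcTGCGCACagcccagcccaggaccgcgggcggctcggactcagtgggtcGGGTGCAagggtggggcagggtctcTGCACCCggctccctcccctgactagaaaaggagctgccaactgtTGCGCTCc
The MT2A promoter held 7 cores, that of MT1X held 4 and that of MT1H held 8, and no cores overlapped. Of 35116 promoter windows of this length, 24.8% held at least 1 core, 0.37% held at least 4 and 0.0313% held at least 7. The base composition was 73.2% G and C for MT2A, 70% for MT1X and 70.4% for MT1H. A TATAAA box, found in 10.7% of all windows on either strand, began at position -29 in MT2A and -30 in MT1X. The core of the antioxidant response element, TGACNNNGC, which 10.9% of windows held, began at -104 in MT2A, inside the run tgactcagc, and at -243 on the other strand in MT1X. These are matches of letters in the window, not measured binding.

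The targeted genes were low on the arrays labelled for them. DDX19B, the name of DBP5 on the array, was at 0.0643 of control with DBP5 siRNA (limma adjusted p = 5.71e-11). GLE1 was at 0.102 with GLE1 siRNA (limma adjusted p = 2.18e-08) and IPPK at 0.186 with IPPK siRNA (limma adjusted p = 1.39e-09). DDX19B was also at 0.498 of control with GLE1 siRNA, and IPPK at 0.419 with DBP5 siRNA. The share of probes well above background was 70.9% to 73.8% on the IPPK siRNA arrays and 73.4% to 77.7% on the other 9. All 9 mesenchymal and bone lineage markers, such as VIM and SPARC, passed the filter on low signal, as did 10 of 12 markers of other cell types, with KRT5 and TTR not passing it. Of all genes tested, 27.3%, 32% and 27.3% were higher than control with DBP5, GLE1 and IPPK siRNA in turn and 27.1%, 30.4% and 28.2% lower, and the counts of both lists are given beside these shares. Of the 9 bone lineage markers, 2 were higher and 2 lower with DBP5 siRNA, 1 and 2 with GLE1, and 2 and 3 with IPPK. Among them BGLAP rose with each siRNA, COL1A1 fell to 0.253 of control with IPPK siRNA, and SPP1 fell to 0.233 with GLE1 siRNA and rose 2.7-fold with IPPK siRNA. Of the 10 markers of other cell types, 3 were higher and 2 lower with DBP5 siRNA, 4 and 2 with GLE1, and 1 and 4 with IPPK. The epithelial genes among them did not move together. CDH1 was read by a dim probe, well above background on only 8 of 12 arrays. It had log2 differences from control of 0.93, 3.29 and 1.28 with DBP5, GLE1 and IPPK siRNA in turn (1.16 for GLE1 and 0.26 for IPPK with normexp correction). EPCAM had -0.61, -0.42 and -0.92, and KRT14 had 0.22, 0.79 and -0.49. The part of these genes in the results was not tested.

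MT1E, MT1M and MT1X rose in all 3 knock-downs. The rise was least in DBP5 knocked-down and most in IPPK knocked-down cells for MT1E, MT1M and the brighter of the MT1X probes, but not for the dimmer one. MT1G also rose in all 3, on a dim probe. MT2A, whose probe was among the 30 brightest of 34127 on every array, moved little. In DBP5 knocked-down cells 4 of the 6 tested members passed the test, all of them higher, where 27.3% of all genes were called higher. In GLE1 knocked-down cells 5 of 6 were higher, against 32% of all genes, and in IPPK knocked-down cells 5 of 6, against 27.3%. No tested member was called lower than control, where 27.1%, 30.4% and 28.2% of all genes were lower with DBP5, GLE1 and IPPK siRNA in turn. The median log2 difference over the 6 members was 0.41, 0.80 and 1.07 with DBP5, GLE1 and IPPK siRNA in turn, and that over all genes was -0.02, 0.03 and -0.03.

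**Figure D1:**
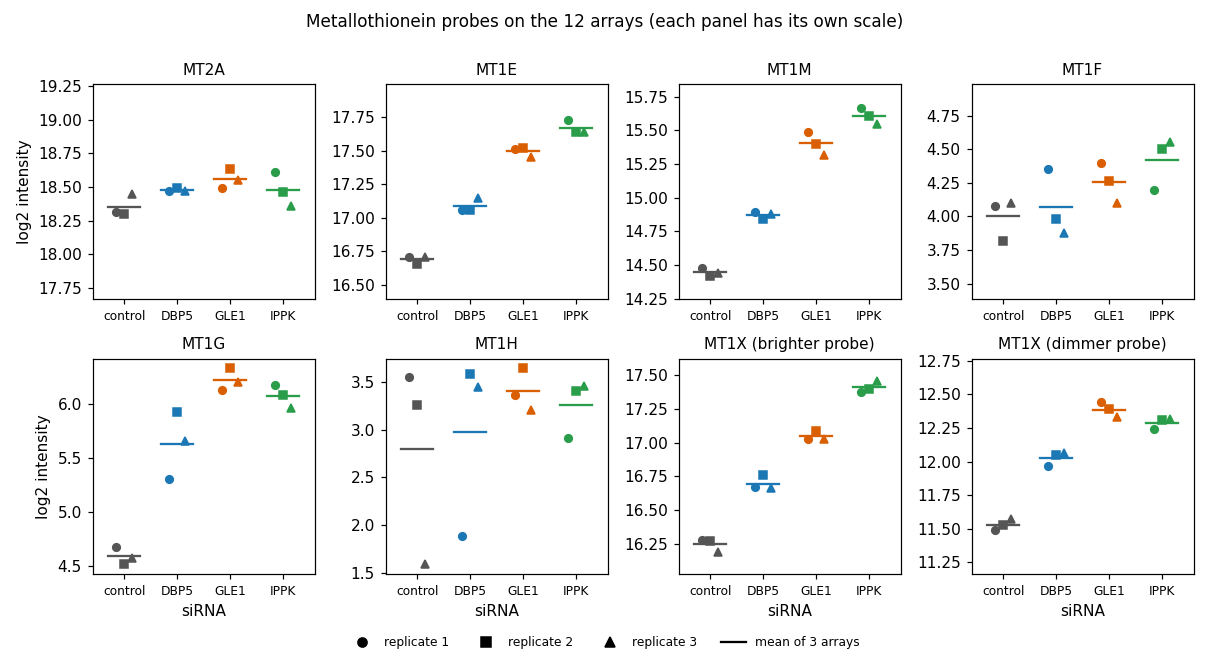
Log2 intensity (y axis, a separate scale in each panel) of the 8 metallothionein probes by siRNA (x axis), with 1 point per array and a bar at the mean of 3 arrays. MT1E, MT1M and the brighter MT1X probe climb in 4 separate steps from control to IPPK, while MT2A stays between 18.3 and 18.63 and MT1H is not well above background on any array.

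MT1E had a log2 intensity of 16.71, 16.66 and 16.71 on the control arrays and 17.06, 17.06 and 17.15 with DBP5 siRNA. With GLE1 siRNA it was 17.51, 17.52 and 17.45, and with IPPK siRNA 17.73, 17.64 and 17.64. The 4 groups did not overlap. MT1E was 1.32-fold above control in DBP5 knocked-down cells (log2 difference 0.40, SE 0.05; limma adjusted p = 4.33e-05). The rise was 1.74-fold in GLE1 knocked-down cells (log2 difference 0.80; limma adjusted p = 1.48e-07) and 1.97-fold in IPPK knocked-down cells (0.98; limma adjusted p = 5.86e-08). MT1E lies between the pseudogene MT1L and MT1M in the metallothionein cluster of chromosome 16.

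MT1M, the neighbour of MT1E on the other side, kept the same order. Its log2 intensity was 14.48, 14.42 and 14.44 in control and 14.89, 14.84 and 14.88 with DBP5 siRNA. It was 15.49, 15.40 and 15.32 with GLE1 siRNA and 15.67, 15.61 and 15.55 with IPPK siRNA. No array of one group fell within another. MT1M was 1.34-fold, 1.94-fold and 2.24-fold above control with DBP5, GLE1 and IPPK siRNA in turn (log2 differences 0.43, 0.96 and 1.16, SE 0.05; limma adjusted p = 6.93e-05, 9.86e-08 and 4.16e-08).

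MT1X, at the far end of the cluster from MT2A, was read by 2 probes. The brighter one gave a log2 intensity of 16.28, 16.27 and 16.19 in control and 16.67, 16.76 and 16.66 with DBP5 siRNA. It gave 17.03, 17.09 and 17.03 with GLE1 siRNA and 17.38, 17.40 and 17.46 with IPPK siRNA. These groups again stood in 4 separate steps. By this probe MT1X was 1.36-fold, 1.74-fold and 2.24-fold above control with DBP5, GLE1 and IPPK siRNA in turn (log2 differences 0.45, 0.80 and 1.16, SE 0.05; limma adjusted p = 2.04e-05, 1.55e-07 and 1.92e-08).

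The dimmer MT1X probe also rose in every knock-down, but did not place IPPK above GLE1. Its log2 intensity was 11.49, 11.53 and 11.57 in control and 11.97, 12.05 and 12.06 with DBP5 siRNA. It was 12.44, 12.39 and 12.33 with GLE1 siRNA and 12.24, 12.31 and 12.32 with IPPK siRNA. The log2 differences from control were 0.50, 0.86 and 0.76 with DBP5, GLE1 and IPPK siRNA in turn. The brighter probe minus the dimmer one, on the log2 scale, was 4.63 to 4.79 on the control arrays and 4.61 to 4.70 on the DBP5 arrays. It was 4.59 to 4.70 on the GLE1 arrays and 5.09 to 5.14 on the IPPK arrays. Thus the IPPK arrays alone lay apart from the other 9. Each of their 3 comparisons had p = 0.1 by a two-sided exact permutation test, the smallest that 3 arrays against 3 allow, and the other 3 of the 6 comparisons made gave p = 0.4, 0.4 and 0.8. None of these comparisons can therefore pass 0.05. With the mean of both probes, MT1X was higher than control with IPPK siRNA by 0.96 on the log2 scale instead of 1.16.

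MT1G rose from low intensities. It had a log2 intensity of 4.68, 4.52 and 4.58 in control and 5.31, 5.93 and 5.66 with DBP5 siRNA. It had 6.13, 6.33 and 6.20 with GLE1 siRNA and 6.18, 6.08 and 5.96 with IPPK siRNA. All knock-down arrays were above all control arrays, and the GLE1 and IPPK arrays overlapped. The folds over control were 2.06, 3.08 and 2.79 with DBP5, GLE1 and IPPK siRNA in turn (log2 differences 1.04, 1.62 and 1.48, SE 0.13; limma adjusted p = 7.24e-05, 1.68e-06 and 5.06e-06). On a dim probe the size depends on how the background is handled, and with normexp correction the log2 differences were 0.33, 0.61 and 0.49, still called and each smaller than those of MT1E, MT1M and MT1X. A paired t-test, which the paper's methods name in general but not for the arrays, did not call the rise with DBP5 siRNA (adjusted p = 0.0987).

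MT2A showed the smallest differences among the members that were well above background on all arrays. Its log2 intensity was 18.31, 18.30 and 18.45 in control and 18.47, 18.49 and 18.47 with DBP5 siRNA. It was 18.49, 18.63 and 18.55 with GLE1 siRNA and 18.61, 18.46 and 18.36 with IPPK siRNA. The highest control array reached the level of the DBP5 arrays within 0.02 and lay inside the IPPK group. MT2A was 1.15-fold above control with GLE1 siRNA (log2 difference 0.20, SE 0.07; limma adjusted p = 0.029). This call was lost with quantile normalization, where the difference was 0.04, with normexp correction (0.12), with the authors' processed values (0.06) and under the methods' paired t-test. It was also lost without control replicate 1 (0.18) or 2 (0.18) and without GLE1 replicate 2 (0.17) or 3 (0.21). With DBP5 or IPPK siRNA the log2 difference was 0.12 in both, with 95% intervals from -0.04 to 0.28 (limma adjusted p = 0.186 and 0.19). The difference with IPPK siRNA was 0.05 without IPPK replicate 1 and 0.18 without IPPK replicate 3. No spot on any array was marked as saturated.

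MT1F and MT1H had signals near the background. MT1F had a log2 intensity of 4.08, 3.82 and 4.10 in control, 4.35, 3.98 and 3.88 with DBP5 siRNA, and 4.40, 4.26 and 4.10 with GLE1 siRNA. It had 4.20, 4.50 and 4.55 with IPPK siRNA, with the lowest of these 3 arrays not well above background. The IPPK arrays lay above the control arrays, by 1.34-fold in the mean (log2 difference 0.42, SE 0.14; limma adjusted p = 0.0288). With the authors' processed values the log2 difference was 0.13, still called. The call was lost with scaling to the 75th percentile (0.35), under the methods' paired t-test, and without control replicate 2 (0.33) or IPPK replicate 2 (0.38) or 3 (0.35). The differences of MT1F with DBP5 or GLE1 siRNA were 0.07 and 0.26 on the log2 scale (limma adjusted p = 0.716 and 0.147). The second was 0.09 with the authors' processed values, 0.41 with scaling to the 75th percentile, and 0.17 to 0.33 with 1 array left out. The MT1H probe was not well above background on any of 12 arrays, with log2 intensities from 1.59 to 3.64, so no fold is given.

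The design also allows the knock-downs to be set against each other. GLE1 knock-down gave higher levels than DBP5 knock-down for 4 of 6 members, where 27.7% of all genes were higher. These were MT1E, MT1M, MT1X and MT1G, with log2 differences of 0.40, 0.53, 0.36 and 0.58 (limma adjusted p = 4.12e-05, 1.3e-05, 0.000106 and 0.00372). The paired t-test of the methods called 2 members instead of 4, leaving out MT1E and MT1G. With the authors' processed values the MT1G difference was 0.27. DBP5 knock-down was below IPPK knock-down for the same 4 genes, where 24.4% of all genes were lower, by log2 differences of -0.58, -0.74, -0.72 and -0.44 (limma adjusted p = 4.14e-06, 1.81e-06, 9.99e-07 and 0.0198). For MT1X the dimmer probe gave -0.26 and the mean of both probes -0.49. For MT1G the call was lost with scaling to the 75th percentile, with normexp (-0.17), with the authors' values (-0.16), with only the 6 arrays compared, under the paired t-test and without IPPK replicate 1. MT1F was not called for DBP5 against IPPK (log2 difference -0.345), but was with quantile normalization (-0.38, limma adjusted p = 0.0351), without DBP5 replicate 1 (-0.48) and without IPPK replicate 1 (-0.45). Across the alternatives 3 to 5 members were lower.

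GLE1 knock-down was below IPPK knock-down for MT1E, MT1M and MT1X, 3 of 6 members, where 29.6% of all genes were lower. The log2 differences were -0.18, -0.21 and -0.36, SE 0.05 (limma adjusted p = 0.00835, 0.00697 and 8.26e-05). On the 3 slides MT1E differed by -0.23, -0.12 and -0.18 and MT1M by -0.19, -0.21 and -0.23. The MT1E call was lost with scaling to the 75th percentile, where the difference was -0.08, and under the paired t-test. MT1G had a log2 difference of 0.14 with a 95% interval from -0.16 to 0.44, and the dimmer MT1X probe one of 0.10 (limma over all probes, adjusted p = 0.116). The mean of the MT1X probes gave -0.13. The order control, DBP5, GLE1, IPPK therefore held between all neighbours for MT1E, MT1M and the brighter MT1X probe, while GLE1 against IPPK did not pass the test for MT1G, MT1F, MT2A and the dimmer MT1X probe. On that probe all GLE1 arrays lay above all IPPK arrays, but narrowly, with the lowest GLE1 array at 12.33 and the highest IPPK array at 12.32.

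**Figure D2:**
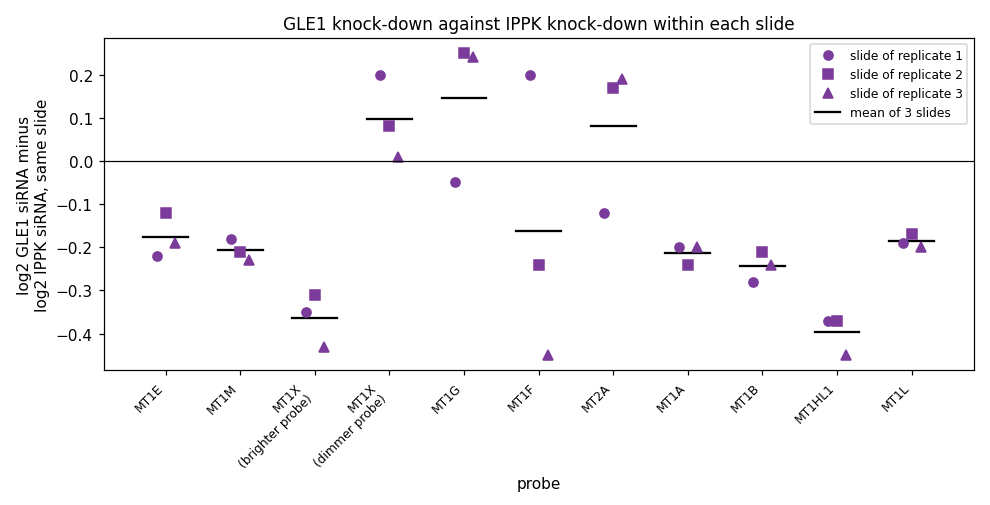
Log2 intensity with GLE1 siRNA minus that with IPPK siRNA on the same slide (y axis) for each member probe that passed the filter on low signal and for MT1A, MT1B, MT1HL1 and MT1L (x axis), with 1 point per slide and a bar at the mean of 3 slides. The points of MT1E, MT1M, the brighter MT1X probe and the 4 genes at the right lie below 0 on every slide, while those of the dimmer MT1X probe lie above 0 and those of MT1G, MT1F and MT2A fall on both sides.

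The other metallothionein genes followed by name were 10, of which 8 had a probe and 6 passed the filter on low signal. MT1A, MT1B, MT1L and MT1HL1 rose in every knock-down, 4 of 6 tested, in the order DBP5, GLE1, IPPK. Of all genes, 27.3%, 32% and 27.3% were higher with DBP5, GLE1 and IPPK siRNA in turn. MT1A and MT1B code for metallothionein 1 proteins, and MT1L is listed as a transcribed pseudogene. Over the 12 arrays, Pearson's r of log2 intensity was 0.995 between MT1HL1 and the brighter MT1X probe. It was also 0.995 between MT1B and MT1L, and 0.993 between MT1A and MT1E. How far these probes read separate transcripts was not tested. MT1HL1, the only one of the 4 on another chromosome, had the largest difference with IPPK siRNA, 2.35-fold over control (log2 difference 1.24, SE 0.05; limma adjusted p = 2.16e-08). Its log2 intensity was 16.90, 16.78 and 16.76 in control and 18.07, 18.05 and 18.03 with IPPK siRNA. MT1A, MT1B and MT1L were above control by 0.42, 0.40 and 0.41 on the log2 scale with DBP5 siRNA, 0.76, 0.66 and 0.69 with GLE1 siRNA and 0.97, 0.91 and 0.88 with IPPK siRNA. All 4 were lower with GLE1 siRNA than with IPPK siRNA, by -0.19 to -0.40, where 29.6% of all genes were lower. MT1A and MT1L lost this call with scaling to the 75th percentile (-0.10 and -0.08). MT1A also lost it with normexp correction (-0.16) and MT1L without IPPK replicate 3 (-0.18), and the methods' paired t-test did not call the rise of MT1L with DBP5 siRNA (adjusted p = 0.0563).

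MT3, the metallothionein best known from the brain, fell in IPPK knocked-down cells. It had a log2 intensity of 11.81, 11.75 and 12.01 in control and 11.34, 11.43 and 11.44 with IPPK siRNA, with no overlap. It fell to 0.732 of control (log2 difference -0.45, SE 0.08; limma adjusted p = 0.000554; adjusted p = 0.0608 by the methods' paired t-test), and the IPPK arrays were also below the GLE1 arrays (log2 difference 0.36 for GLE1 over IPPK, limma adjusted p = 0.00223) and the DBP5 arrays (0.30 for DBP5 over IPPK, limma adjusted p = 0.00873). With DBP5 or GLE1 siRNA MT3 differed from control by -0.15 and -0.09 (limma adjusted p = 0.128 and 0.339), values that were -0.075 and -0.015 without control replicate 3. Without GLE1 replicate 1 the second was -0.035. With the authors' processed values the fall with DBP5 siRNA was called (-0.18, limma adjusted p = 0.0258). MT1IP, a transcribed pseudogene, passed the test in no comparison. MT1DP and MT4 were not well above background on any array.

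**Figure D3:**
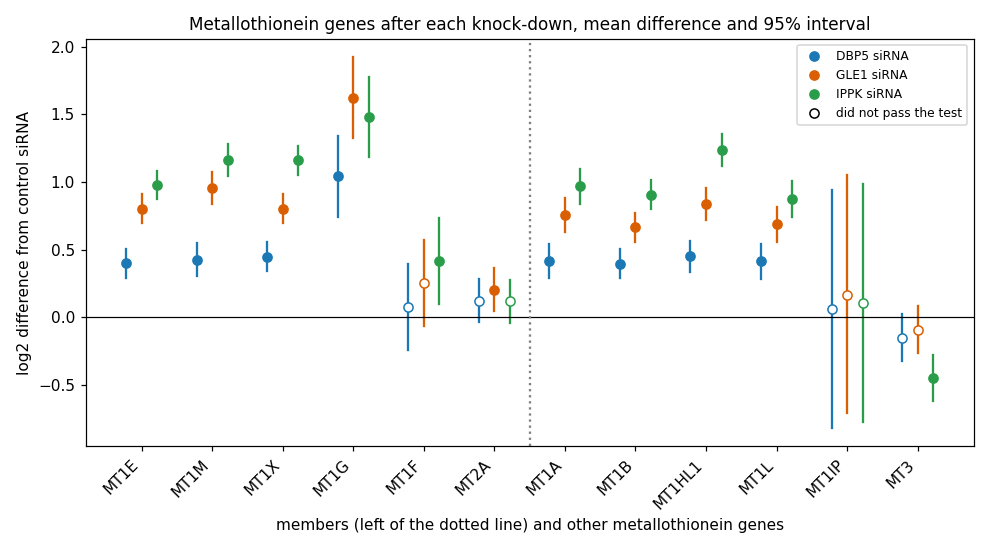
Log2 difference from control (y axis) with DBP5, GLE1 and IPPK siRNA for the 6 members that passed the filter, left of the dotted line, and the 6 other metallothionein genes, right of it (x axis), as the mean with its 95% interval. Filled points passed limma at an adjusted p of 0.05, and MT1E, MT1M, MT1X, MT1A, MT1B, MT1HL1 and MT1L show the same ascending order while MT3 lies below 0.

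Over the 12 arrays, which hold 4 siRNAs and are therefore not independent points, Pearson's r of log2 intensity was 0.995 between MT1E and MT1M and 0.980 between MT1E and the brighter MT1X probe. It was 0.898 between the MT1X probes, while MT1G and the dimmer MT1X probe had 0.971. MT2A correlated with the other member probes at 0.155 to 0.724. Among 18416 genes outside the members, the profiles most like the mean of MT1E, MT1G, MT1M, MT1X and MT2A, each centred on its own mean, were those of MAP3K14, XPO7 and CYB5D2 (r = 0.988 each), a transcript with no symbol in the RefSeq table (0.985) and TOM1 (0.984). The other metallothionein genes MT1A, MT1B, MT1L and MT1HL1 were among the genes searched, and had r of 0.983 to 0.993 with MT1E itself. MAP3K14 codes for the kinase NIK, XPO7 for a nuclear transport receptor and TOM1 for an endosomal sorting protein. Their log2 differences from control with DBP5, GLE1 and IPPK siRNA in turn were 0.56, 1.26 and 1.29 for MAP3K14 and 0.67, 1.17 and 1.15 for XPO7.

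MTF1, the metal-sensing activator of metallothionein genes, had a log2 intensity of 10.93, 11 and 10.91 in control and 9.90, 9.66 and 9.78 with DBP5 siRNA. It had 10.79, 10.78 and 10.75 with GLE1 siRNA and 9.92, 10.32 and 10.28 with IPPK siRNA. Every knock-down array was thus below every control array. MTF1 fell to 0.446 of control with DBP5 siRNA (limma adjusted p = 3.89e-06) and to 0.586 with IPPK siRNA (limma adjusted p = 7.83e-05), and was at 0.889 with GLE1 siRNA (limma adjusted p = 0.172). The methods' paired t-test did not call the fall with IPPK siRNA (adjusted p = 0.058), and with only the 6 arrays compared that with GLE1 siRNA was called (limma adjusted p = 0.0237). NR3C1, the glucocorticoid receptor, rose 1.28-fold, 2.21-fold and 1.98-fold with DBP5, GLE1 and IPPK siRNA in turn (limma adjusted p = 0.00163, 2.03e-07 and 9.67e-07), and its other probe gave 1.56-fold, 3.55-fold and 2.83-fold. Of 11 tested genes of zinc sensing, glucocorticoid response and the KEAP1 pathway, which hold targets as well as regulators, 2 were higher and 5 lower with DBP5 siRNA (27.3% and 27.1% of all genes), 4 and 3 with GLE1 (32% and 30.4%), and 3 and 5 with IPPK (27.3% and 28.2%). Their median log2 difference was -0.08, 0.03 and -0.04, where that of all genes was -0.02, 0.03 and -0.03. Among glucocorticoid-induced genes, FKBP5 fell in all 3 knock-downs (log2 differences -0.83, -0.93 and -0.27). DUSP1 rose 3.10-fold with GLE1 siRNA and 1.21-fold with IPPK siRNA and fell to 0.822 of control with DBP5 siRNA. SGK1 rose 2.33-fold with IPPK siRNA and 1.15-fold with DBP5 siRNA and fell to 0.767 with GLE1 siRNA. PER1 fell to 0.572 with IPPK siRNA.

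Among zinc exporters and vesicle loaders, 8 of 11 listed genes were tested, and 4 were higher and 1 lower with DBP5 siRNA (27.3% and 27.1% of all genes), 5 and 1 with GLE1 (32% and 30.4%) and 4 and 0 with IPPK (27.3% and 28.2%). SLC30A1, the plasma membrane zinc exporter that is itself a target of MTF1, rose 1.36-fold with GLE1 siRNA (log2 difference 0.44; limma adjusted p = 0.00135). Its log2 difference was -0.08 with DBP5 and 0.07 with IPPK siRNA (limma adjusted p = 0.482 and 0.548). Without DBP5 replicate 1 the first of these was -0.20 and passed the test (limma adjusted p = 0.0213). SLC30A2, which loads zinc into vesicles, had log2 intensities of 7.31 to 7.40 in control and 9.45 to 9.91 on the 9 knock-down arrays. It rose 4.92-fold, 5.62-fold and 4.44-fold with DBP5, GLE1 and IPPK siRNA in turn (limma adjusted p = 2.66e-09, 5.67e-10 and 2.76e-09). SLC30A6, a zinc transporter of the Golgi, fell to 0.748 of control with DBP5 siRNA, and SLC30A3, a vesicle loader of neurons, to 0.735 with GLE1 siRNA. With DBP5 siRNA SLC30A3 rose 1.25-fold (limma over all probes, adjusted p = 0.0106).

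Of 13 tested zinc importers, 4 were higher and 5 lower with DBP5 siRNA, 6 and 4 with GLE1, and 4 and 3 with IPPK, beside 27.3%, 32% and 27.3% of all genes higher and 27.1%, 30.4% and 28.2% lower. SLC39A10 rose 2.73-fold, 4.26-fold and 3.14-fold with DBP5, GLE1 and IPPK siRNA in turn (limma adjusted p = 2.99e-07, 1.15e-08 and 9.85e-08). SLC39A1, an importer of the plasma membrane, fell to 0.569, 0.25 and 0.773 of control in the same order. SLC39A8, which also carries manganese and cadmium, fell to 0.429 with DBP5 siRNA by its brighter probe, and its other probe gave 0.827 (limma over all probes, adjusted p = 0.186). SLC39A9 fell to 0.632 of control with IPPK siRNA and 0.855 with DBP5 siRNA, and rose 1.25-fold with GLE1 siRNA.

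**Figure D4:**
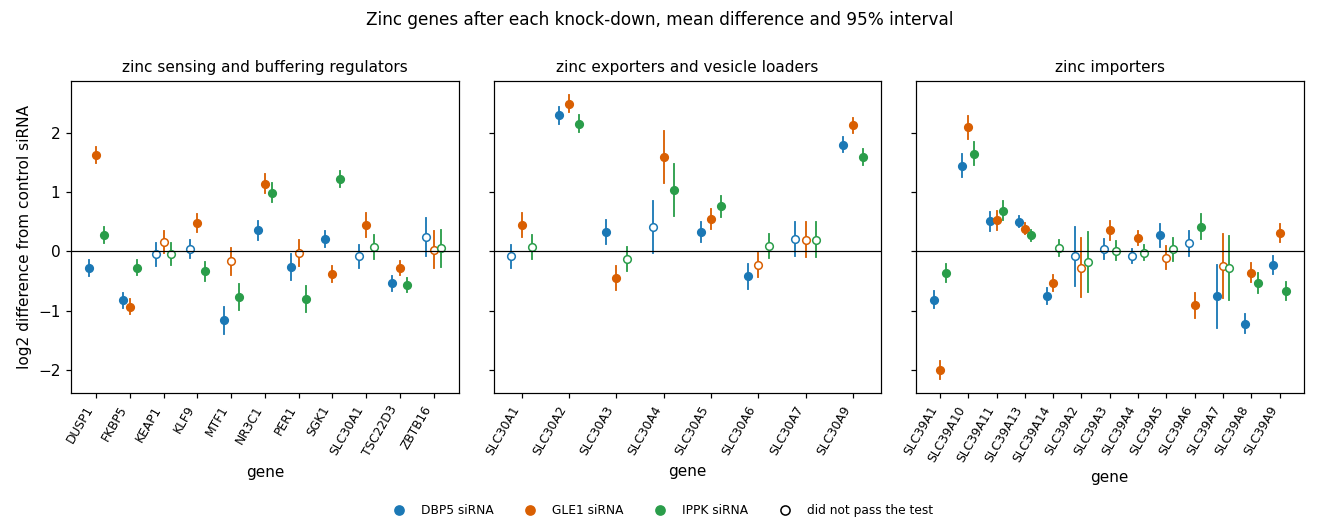
Log2 difference from control (y axis) with DBP5, GLE1 and IPPK siRNA for genes of zinc sensing and glucocorticoid response, zinc exporters and zinc importers (x axis), as the mean with its 95% interval, filled where limma passed at an adjusted p of 0.05. SLC30A2 and SLC39A10 are among the genes above 0 in all 3 knock-downs, SLC39A1 is among those below 0 in all 3, and MTF1 is lowest with DBP5 siRNA.

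Genes for other metals and for metal stress were counted in the same way, to be read against the 27.3%, 32% and 27.3% of all genes that were higher with DBP5, GLE1 and IPPK siRNA in turn and the 27.1%, 30.4% and 28.2% that were lower. Of 13 copper genes, 4 were higher and 5 lower with DBP5 siRNA, 6 and 4 with GLE1, and 4 and 4 with IPPK. ATP7B, a copper-exporting pump, rose 1.85-fold, 1.64-fold and 1.93-fold in the 3 knock-downs, and COX17, the copper chaperone of cytochrome oxidase, fell to 0.604, 0.7 and 0.741 of control. Of 11 iron genes, 4 were higher and 3 lower with DBP5 siRNA, 9 and 1 with GLE1, and 6 and 3 with IPPK. SLC25A37, the mitochondrial iron importer, fell to 0.597, 0.723 and 0.7 of control in the 3 knock-downs.

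Of 12 metal stress genes, 5 were higher and 4 lower with DBP5 siRNA, 6 and 5 with GLE1, and 6 and 2 with IPPK. HMOX1, heme oxygenase 1, had the largest rise of this list in each knock-down and of the iron genes too. Its log2 intensity was 13.91, 13.85 and 13.65 in control and 14.86, 14.81 and 14.73 with DBP5 siRNA. It was 16.93, 16.99 and 16.80 with GLE1 siRNA and 17.36, 17.33 and 17.36 with IPPK siRNA, so the groups stood in the same ascending order as MT1E, MT1M and the brighter MT1X probe. HMOX1 was 1.99-fold, 8.58-fold and 11.7-fold above control (limma adjusted p = 1.59e-06, 4.52e-10 and 5.77e-10). HSPA1A, the inducible HSP70 that heat and cadmium raise and whose probe may also read the near-identical HSPA1B, fell to 0.649, 0.245 and 0.722 of control in the 3 knock-downs. SLC7A11, which brings in cystine, fell to 0.586 with DBP5 siRNA and 0.46 with GLE1 siRNA and rose 1.7-fold with IPPK siRNA.

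Non-coding RNAs, among them MALAT1 and KCNQ1OT1, which are known to stay mostly in the nucleus, were also followed. Of 4 tested, 1 was higher and 1 lower with DBP5 siRNA (27.3% and 27.1% of all genes), 3 and 0 with GLE1 (32% and 30.4%), and 1 and 2 with IPPK (27.3% and 28.2%). MALAT1 fell to 0.472 of control with IPPK siRNA, a call that the methods' paired t-test did not make. Its log2 differences with DBP5 or GLE1 siRNA were -0.54 and -0.31 (limma adjusted p = 0.0969 and 0.324). On the GLE1 arrays MALAT1 read 8.45, 7.65 and 8.55, beside 8.55, 8.66 and 8.37 in control. KCNQ1OT1 rose 1.585-fold, 1.846-fold and 1.169-fold with DBP5, GLE1 and IPPK siRNA in turn. The calls with DBP5 and IPPK siRNA were lost with the mean of its probes (log2 differences 0.15 and 0.22). That with IPPK siRNA was also lost under the paired t-test and without control replicate 1, control replicate 2 or IPPK replicate 2. SNHG1, a spliced host transcript of small nucleolar RNAs that is not confined to the nucleus, rose 1.91-fold with GLE1 siRNA and fell to 0.646 with DBP5 siRNA and 0.695 with IPPK siRNA. Their part in the metallothionein levels was not tested.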

How the data were processed

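The authors hybridised cytoplasmic RNA of U2OS cells to 12 one-colour arrays, and per the labels each siRNA had 3 replicates. For each array the authors deposited Feature Extraction output, with a linear intensity per spot after background subtraction, median intensities without it, and flags. The authors also deposited processed log2 values, normalised by LOESS in R according to the methods. They followed the log2 of the median intensity without background subtraction.

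Here the log2 of the background-subtracted intensity was normalised by cyclic loess. Outlier and control spots were dropped, and repeated spots averaged. Accessions were matched to RefSeq names (GRCh38.p14, used for names and promoters only, since the design names another build), which named 77.5% of probes. The brightest probe stood for a gene. Of 27522 gene names, 20821 were kept, 4 missing values among them being left out of their fits. Between 169 and 358 outlier spots were dropped per array. Arrays hold no molecule counts, and their number and the signal over background limit the precision.

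limma 3.58.1 in R 4.3.3 fitted 1 mean per siRNA, with Benjamini-Hochberg adjustment per comparison. It was also run on simulated data with independent noise, few shifted genes and no slide effect, unlike the real arrays. Figures used matplotlib 3.10.9 in Python 3.11.15. The members and gene lists were chosen with earlier results of these data known. Named genes are all members, MTF1, SLC30A1, NR3C1, the 5 genes most like the members, and per list and knock-down the largest rise and fall past the threshold with arrays that do not overlap. SLC30A1 stood in 2 lists, as did HMOX1. Not every gene the rule allowed is printed. KRT14 was chosen after its values were seen.

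Each slide held 1 array of each siRNA with one replicate number. Deviations from group means correlated at 0.315 to 0.544 in the 18 same-numbered pairs and at -0.333 to -0.016 in the 36 others, so the numbers pair the arrays. Alternatives were quantile normalization, scaling to the 75th percentile, normexp correction (offset 50, on the median signal), the authors' values, other filters on dim probes, the mean of probes or each probe alone, the replicate block, only the 6 arrays compared, the methods' paired t-test, and each array left out. That t-test comes from the paper's general statistics section. For its arrays the paper describes rank-product gene lists and a fold threshold, which were not run here.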

Additional observations from a re-analysis of the deposited data

How the results depend on the processing

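With the replicate number as a block, the counts of members called were 4 for DBP5, 5 for GLE1 and 5 for IPPK against control, all higher, as without it, and the block changed no call of a member. MT1E, MT1M and MT1X were called higher than control after each knock-down under every alternative run, with log2 differences from 0.34 to 1.28. Of 36 member differences, 18 were called and kept their call and sign under every alternative in which the brightest probe or the mean of probes stood for the gene. The dimmer MT1X probe alone turned the sign of GLE1 against IPPK (0.10, adjusted p = 0.116). The count of members higher with GLE1 than with IPPK siRNA was 1 with scaling to the 75th percentile (MT2A, log2 difference 0.22) instead of 0, and that of GLE1 over DBP5 was 2 with the methods' paired t-test. Small differences changed sign. With scaling to the 75th percentile, MT2A was at -0.004 for IPPK against control, MT1F at 0.057 for GLE1 against IPPK, and MT1IP at -0.005 for IPPK against control and 0.026 for DBP5 against IPPK. With normexp, MT2A was at -0.01 for IPPK against control and MT1IP at -0.043 for GLE1 against IPPK. With quantile normalization, MT2A was at -0.012, -0.096 and -0.085 for GLE1 against DBP5, GLE1 against IPPK and DBP5 against IPPK. With the authors' values, the first 2 were -0.002 and 0, and MT1IP was at -0.022 for GLE1 against IPPK. The cause was not tested. The paired t-test also lost the calls of NR3C1, SLC30A6 and SLC7A11 with DBP5 siRNA, SLC30A3 with GLE1 siRNA, and MTF1, MT3, CDH1, MALAT1 and KCNQ1OT1 with IPPK siRNA. MT1L and MT1B lost calls between knock-downs under it: both for GLE1 against DBP5, and MT1L for DBP5 against IPPK. Leaving out 1 array in turn gave log2 differences of -0.066 to 0.168 for MT1F in DBP5 against control, -0.511 to 0.299 for MT1IP in DBP5 against IPPK, -0.2 to 0.23 for MT1IP in DBP5 against control, -0.109 to 0.369 for MT1IP in GLE1 against DBP5, -0.405 to 0.405 for MT1IP in GLE1 against IPPK, -0.047 to 0.379 for MT1IP in GLE1 against control, -0.237 to 0.573 for MT1IP in IPPK against control and -0.057 to 0.07 for MT2A in DBP5 against IPPK.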
